A study of Homo sapiens with 3 samples.

Results

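Binding of the transcription factor ZBTB11 was examined at 10 genes that encode the oncoprotein SET, its acidic relatives and the core of the phosphatase that SET inhibits. The genes were listed by name, by a rule that used no measured value, although earlier results of these data were known when they were chosen: *SET*; the ANP32 genes *ANP32A*, *ANP32B* and *ANP32E*; the nucleosome assembly genes *NAP1L1* and *NAP1L4*; the catalytic subunits of protein phosphatase 2A (PP2A), *PPP2CA* and *PPP2CB*; and its scaffold subunits, *PPP2R1A* and *PPP2R1B*. They are 10 of the 62663 GENCODE genes, and 10 of the 20033 protein-coding genes, on the main chromosomes. The study dealt with lung cancer metastasis, and this part of it asked where ZBTB11, a nuclear binding partner of SET, sits on chromatin. The cells were NCI-H1299, an established line labelled as human lung adenocarcinoma, with the genotype given as WT and without treatment, although the study describes the line as p53-null, and the assay was chromatin immunoprecipitation followed by sequencing. One library was made with an antibody against ZBTB11 and another with normal IgG as negative control. A further library, of Input DNA, was not analysed here. There is 1 library per group, all from the same line, so no value below has a replicate check, no test between groups could be made, and intervals cover counting error only. RNA and protein levels of these genes were not measured in these samples, and the identity of the cells could not be checked against marker genes. The study also sequenced RNA of the line after knockdown of ZBTB11 or SET, which was not used here.

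SET is a protein of both nucleus and cytoplasm with a long acidic tail. It binds histones and shields their tails from acetyltransferases, and it also binds the catalytic core of PP2A and inhibits it. The ANP32 proteins share the acidic tail behind leucine-rich repeats. ANP32A is likewise a PP2A inhibitor, and ANP32E removes the histone variant H2A.Z from nucleosomes. NAP1L1 and NAP1L4 have the same NAP-type fold as SET and carry H2A-H2B dimers. PP2A is a major serine/threonine phosphatase and tumour suppressor, built as a catalytic subunit held on a scaffold with an exchangeable regulatory subunit that sets its targets.

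A few sequences show what lay beneath the summits, where the stack of fragments was highest. Each runs 5′ to 3′ on the coding strand of its gene, covers 101 bases of hg38 centred on the summit, and has in capitals any copy of the ETS-like motif CCGGAAG or CAGGAAG or of its reverse complement. *NAP1L4* (chr11:2992522-2992622, minus strand) is shown because it held the strongest peak of the group, and *SET* (chr9:128688851-128688951, plus strand) because it is the partner of ZBTB11. *ANP32A* (chr15:68819710-68819810, minus strand) and *PPP2R1B* (chr11:111765526-111765626, minus strand) are shown because the motif lay in the strongest promoter peak of each. The second *SET* window (chr9:128685370-128685470, plus strand) held the other form of the motif.
NAP1L4: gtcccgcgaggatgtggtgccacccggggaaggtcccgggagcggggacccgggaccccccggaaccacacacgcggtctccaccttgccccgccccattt
SET: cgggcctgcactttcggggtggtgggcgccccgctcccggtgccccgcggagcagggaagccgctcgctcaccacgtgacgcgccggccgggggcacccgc
SET, second peak: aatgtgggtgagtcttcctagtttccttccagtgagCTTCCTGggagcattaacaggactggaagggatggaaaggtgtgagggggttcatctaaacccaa
ANP32A: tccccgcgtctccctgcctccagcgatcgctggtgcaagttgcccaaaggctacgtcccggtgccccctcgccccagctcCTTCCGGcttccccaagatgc
PPP2R1B: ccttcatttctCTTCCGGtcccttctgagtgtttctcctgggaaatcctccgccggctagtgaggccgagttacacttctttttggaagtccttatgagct

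The windows differed in base composition. GC content was 73.3% at *NAP1L4*, 80.2% at *SET*, 68.3% at *ANP32A*, 50.5% at *PPP2R1B* and 49.5% at the second *SET* peak. CpG dinucleotides numbered 15 in the strongest *SET* window and 0 in the second.

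ZBTB11 peaks lay at the promoters of all 10 genes, but most were small. The list of ZBTB11 peaks reached down to a p-value of 0.05 and held 346891 peaks, and 87.7% of protein-coding genes had at least 1 of them within 3 kb of a transcription start site (TSS). All 10 members had one, which against that background is not a result about these genes. A peak was called strong at a p-value of 1e-05 or less. By that measure 6 of 10 members had a strong peak near a TSS, against 46.9% of protein-coding genes, namely *ANP32A*, *ANP32B*, *NAP1L1*, *NAP1L4*, *PPP2CB* and *PPP2R1A*. Most members have many annotated starts, which gives a peak more places to be near. Of the 9 members with at least 10 start positions, 5 had a strong peak, and of all protein-coding genes with that many, 64.5% did. Fragments at the summit and the background at the same place were solved from each peak's fold enrichment and p-value. The strongest peak near a TSS had a median of 15 fragments at its summit over the 10 members, with a median −log10 p of 6.76. Over all protein-coding genes, those without a peak taken as 0, the medians were 9 fragments and 4.54. Among protein-coding genes that had a strong peak the median was 27 fragments, and *NAP1L4* was the only member above it.

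**Figure D1:**
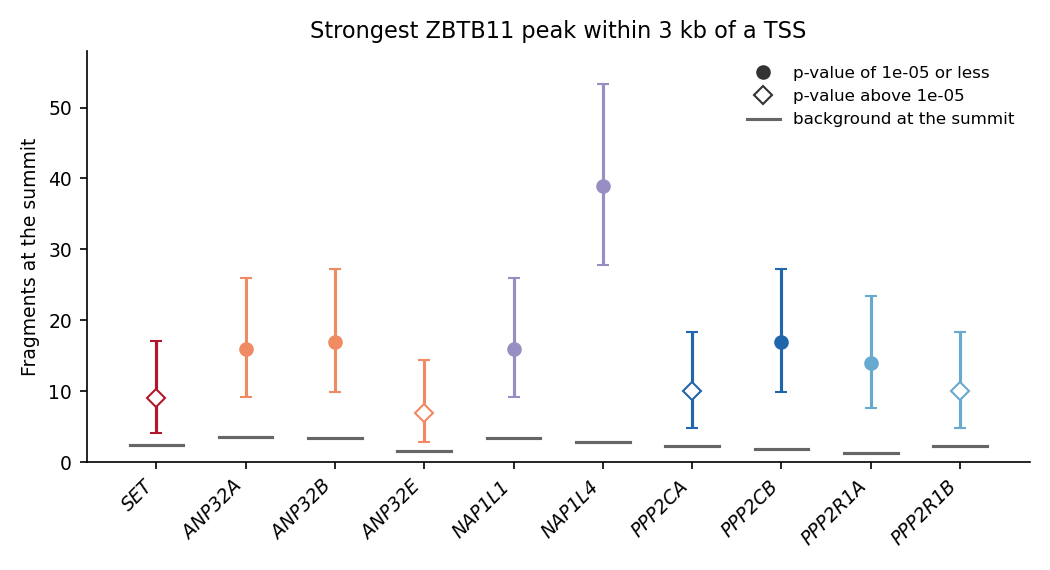
The fragments at the summit of each member's strongest ZBTB11 peak within 3 kb of a TSS are plotted on the vertical axis, with exact Poisson 95% intervals, for the 1 ZBTB11 library; grey lines give the background at the same position, colours mark the gene groups, and open diamonds mark a p-value above 1e-05. *NAP1L4* stood highest at 39 fragments and *ANP32E* lowest at 7, and backgrounds ran from 1.37 to 3.51.

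*SET* itself had only weak peaks. Its strongest, at chr9:128688714-128689596, held 9 fragments at the summit (95% interval 4.12 to 17.1) against a background of 2.48, with a fold of 2.88 and a −log10 p of 3.59. The q-value was 0.105, so the peak missed a q-value of 0.05, and 58.1% of protein-coding genes had a stronger promoter peak. The summit lay 321 bases upstream of the main TSS, defined as the start of the GENCODE canonical transcript, inside an intron of longer *SET* transcripts. The only other *SET* peak, at chr9:128685312-128685649, held 7 fragments (fold 2.22, −log10 p 2.27), also in an intron, 337 bases past an upstream start and 3802 bases upstream of the main TSS. No peak was found in *SET* more than 3 kb from its starts. Among the members only *ANP32E* had a weaker promoter peak by −log10 p, at nearly the same value.

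The promoter peaks of the 3 ANP32 genes held 7 to 17 fragments. *ANP32B*, a histone chaperone, held 17 fragments (9.90 to 27.2) over a background of 3.43 at chr9:97982694-97984050, with a fold of 4.06, a −log10 p of 7.57 and a summit 246 bases upstream of the TSS. *ANP32A* held 16 fragments (9.15 to 26.0) over 3.51 at chr15:68819533-68819931, with a fold of 3.77 and a −log10 p of 6.71. Its summit was in an intron, 1135 bases past the main TSS, and the nearest annotated start of any gene was 937 bases from the edge of the peak. A second *ANP32A* peak, at chr15:68817424-68817809, held 12 fragments (fold 2.99, −log10 p 4.30), passed a q-value of 0.05 and covered another *ANP32A* start. *ANP32E*, the H2A.Z remover, had the weakest promoter peak of the group, with 7 fragments (2.81 to 14.4) over 1.60, a fold of 3.08, a −log10 p of 3.59 and a q-value of 0.106. That peak, at chr1:150235931-150236311, had its summit 134 bases upstream of the main TSS. By fragments at the summit, *ANP32B* and *ANP32A* did not differ beyond counting error (ratio 1.06, exact 95% interval 0.505 to 2.25). The ratio of *ANP32B* to *ANP32E* was 2.43 (0.957 to 6.93) and that of *ANP32A* to *ANP32E* was 2.29 (0.890 to 6.57), so neither difference was beyond counting error. Both ratios leave out the backgrounds, which were 3.43 and 3.51 against 1.60 at *ANP32E*. They do not compare the folds of 4.06 and 3.77 with 3.08.

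The nucleosome assembly gene *NAP1L4* carried the strongest peak of all members. At chr11:2992253-2992961 it held 39 fragments (27.7 to 53.3) over a background of 2.86, a fold of 10.4 and a −log10 p of 30.8. It ranked 3079 of the 346891 ZBTB11 peaks by p-value, and 16.2% of protein-coding genes had a stronger promoter peak. The summit lay 243 bases upstream of the main TSS. *NAP1L1*, which encodes its close relative, held 16 fragments (9.15 to 26.0) over 3.46 at chr12:76084007-76085246, with a fold of 3.81, a −log10 p of 6.80 and a summit 308 bases upstream. The ratio of *NAP1L4* to *NAP1L1* was 2.44 (1.33 to 4.67), the only one of the 6 pairs within families whose interval lay above 1. The 6 intervals were not adjusted for their number.

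Each PP2A core subunit is encoded by a pair of genes. Of the catalytic subunits, *PPP2CA*, which supplies most of the enzyme in many tissues, held 10 fragments (4.80 to 18.4) over 2.32 at chr5:134225620-134227088, with a fold of 3.31, a −log10 p of 4.49 and a q-value of 0.0177. The summit was in the 5′ UTR, 149 bases past the TSS, and the same peak covered starts of the divergent non-coding gene *PPP2CA-DT*, the microRNA gene *MIR3661* and the unnamed gene ENSG00000272772. *PPP2CB*, on chromosome 8, held 17 fragments (9.90 to 27.2) over 1.94, with a fold of 6.13 and a −log10 p of 11.4, the second highest of the members. Its summit was 41 bases upstream of the main TSS, in the 5′ UTR of another transcript. *PPP2CB* and *ANP32B* had the same 17 fragments, and the −log10 p was higher at *PPP2CB*, where the background was 1.94 against 3.43 at *ANP32B*. The ratio of *PPP2CB* to *PPP2CA* in fragments was 1.70 (0.735 to 4.15), not beyond counting error. It leaves out their backgrounds and does not compare the folds of 6.13 and 3.31.

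Of the scaffold subunits, *PPP2R1A*, the main form in most cells, held 14 fragments (7.65 to 23.5) over 1.37 at chr19:52190056-52190585, with a fold of 6.34 and a −log10 p of 10.6. The summit lay 215 bases past the main TSS, in an exon that is coding in an alternative transcript. A second strong peak, at chr19:52171028-52171849, held 11 fragments (fold 4.91, −log10 p 7.34), 18496 bases upstream of the main TSS. It lay 620 bases past the most upstream *PPP2R1A* start, and starts of the zinc finger gene *ZNF836* and of 2 unnamed genes lay under it. *PPP2R1A* was the only member with 2 strong peaks near its starts. A further peak, in an intron 33939 bases past the main TSS, held 7 fragments (fold 3.38, −log10 p 4.04) and passed a q-value of 0.05. *PPP2R1B* held 10 fragments (4.80 to 18.4) over 2.30 at chr11:111765130-111766241, with a fold of 3.34, a −log10 p of 4.54, a q-value of 0.0162 and an intronic summit 813 bases past the main TSS. The ratio of *PPP2R1A* to *PPP2R1B* in fragments was 1.40 (0.578 to 3.52), which leaves out their backgrounds and does not compare the folds of 6.34 and 3.34.

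By −log10 p the order of the strongest promoter peaks was *NAP1L4*, *PPP2CB*, *PPP2R1A*, *ANP32B*, *NAP1L1*, *ANP32A*, *PPP2R1B*, *PPP2CA*, *SET* and *ANP32E*. *NAP1L4* stood apart from the next member, with an interval of fragments (27.7 to 53.3) that did not reach the 27.2 upper bound of *ANP32B* and *PPP2CB*. The intervals of all other neighbours in the order overlapped. At a q-value of 0.05 or less, 8 of 10 members had a peak near a TSS, all but *SET* and *ANP32E*.

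Across the 10 genes and 3 kb around their starts there were 68 ZBTB11 peaks, 45 near a TSS of the same gene and 23 in the gene away from its own starts. They numbered from 2 at *SET* to 9 at *ANP32A*, *NAP1L4* and *PPP2R1B*. Most of them were shallow. Of the 68, 49 (72.1%) had at most 6 fragments at the summit, as did 85.3% of all ZBTB11 peaks, and the median was 5. Only 12 had a q-value of 0.05 or less and 8 were strong. The strong peaks had 3 summits upstream of the gene, 1 in a 5′ UTR, 1 in a coding exon and 3 in introns. Of all 68 summits, 49 were in introns, 5 in non-coding exons, 5 upstream, 4 in 3′ UTRs, 2 in 5′ UTRs, 2 in coding exons and 1 downstream.

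**Figure D2:**
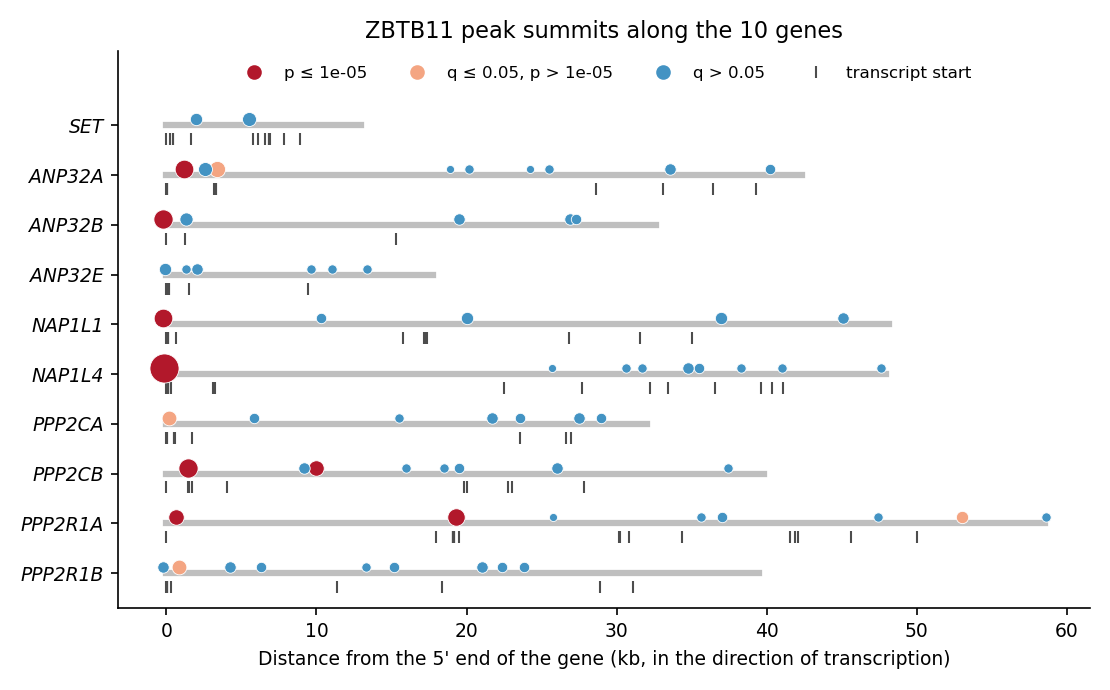
Summits of all 68 ZBTB11 peaks are plotted against distance from the 5′ end of each gene record in kb along the direction of transcription, for the 1 ZBTB11 library; grey bars are gene bodies, ticks are annotated transcript starts, and the area of each circle is proportional to the fragments at the summit. The 8 strong peaks, in dark red, lie within 2 kb of the 5′ end except 1 inside *PPP2CB* and 1 at the main start of *PPP2R1A*.

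One strong peak lay inside a gene away from any start. It was in an intron of *PPP2CB*, 8466 bases past the main TSS and 5628 bases from the nearest start of any gene, and held 11 fragments over 1.44 (fold 4.91, −log10 p 7.34). Such a peak was present in 1 of 10 members and in 3.81% of protein-coding genes. With a q-value of 0.05 in place of the p-value the member count was still 1 and the background 13.6%, and with a p-value of 0.001 it was 1 beside 32.5%, so the single peak does not set the members apart. The members had a median of 1.94 ZBTB11 peaks per 10 kb of gene, the 8294 protein-coding genes of 12 to 60 kb had 1.41, and the main chromosomes as a whole had 1.12. *ANP32E* had the densest coverage at 3.38 per 10 kb and *NAP1L1* the thinnest at 1.04, and all peaks of *ANP32E* were of 7 fragments or fewer.

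Base composition was also compared between peaks on either side of a q-value of 0.05. Over the 101 bases around the summit, the 12 peaks that passed a q-value of 0.05 had a median GC content of 66.3% (36.6 to 76.2%), and the other 56 had 41.6% (21.8 to 80.2%). The former were also wider, at a median of 766 bases against 258. The members' strongest promoter peaks, with a median GC of 68.8%, were close to those of all protein-coding genes with a strong peak, at 67.3%. The part of GC content in these peaks was not tested. The central 31 bases of the summit occurred once in the genome at 62 of the 68 peaks, among them the strongest peak of every member, and more than once at the other 6.

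The motif CCGGAAG or CAGGAAG was searched on both strands within 50 bp of each summit, and CCGGAAG occurs inside longer ETS sites. Taking only the strongest promoter peak of each gene, 1 of the 6 members with a strong one held it, *ANP32A*, against 25.2% of the 9393 protein-coding genes with a strong one. The *ANP32A* copy is centred 33 bases past the summit, as the capitals in its sequence show. At *PPP2R1B*, whose strongest peak was not strong, a copy is centred 36 bases upstream of the summit. The strongest window at *SET* held none, and the second *SET* peak held CAGGAAG centred 11 bases upstream of its summit. The second peak of *PPP2R1A*, at the start region of *ZNF836*, was also strong and held 2 copies, 1 of them CCGGAAG, but does not enter that count. The shorter CGGAAG, chosen after the sequences were seen, lay at the strongest summits of *ANP32A*, *PPP2R1A* and *PPP2R1B*. *NAP1L4*, with the strongest peak of the group, held none of these letters within 50 bp of its summit. In the RefSeq promoter windows, from 250 bases before to 50 after each annotated start, 8 members were matched with 17 windows, and *ANP32E* and *PPP2CB* were not. C[C/A]GGAAG was in 3 of the 17 windows, at *SET* in 2 and at *NAP1L4* in 1, each time as CAGGAAG. Of all 35116 RefSeq promoter windows 21.8% held C[C/A]GGAAG and 10.3% held CCGGAAG, which no member window held.

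The IgG list covers only 4 chromosomes, and *ANP32E*, on chromosome 1, is the one member on any of them. There the peaks of both antibodies were of similar depth. In the gene and 3 kb on either side there were 7 ZBTB11 and 6 IgG peaks. The ZBTB11 promoter peak, with 7 fragments (2.81 to 14.4) and a −log10 p of 3.59, overlapped an IgG peak of 6 fragments (2.20 to 13.1) and a −log10 p of 2.91, with its summit 320 bases upstream of the main TSS. The strongest IgG peak, in an intron 13848 bases past the TSS, held 7 fragments with a −log10 p of 3.67. No ZBTB11 peak at *ANP32E* exceeded the highest IgG peak in fragments. Levels of the libraries were not scaled to each other, and the genome-wide background was 1.35 fragments for ZBTB11 and 1.55 for IgG. For the other 9 members, control values were not analysed here.

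**Figure D3:**
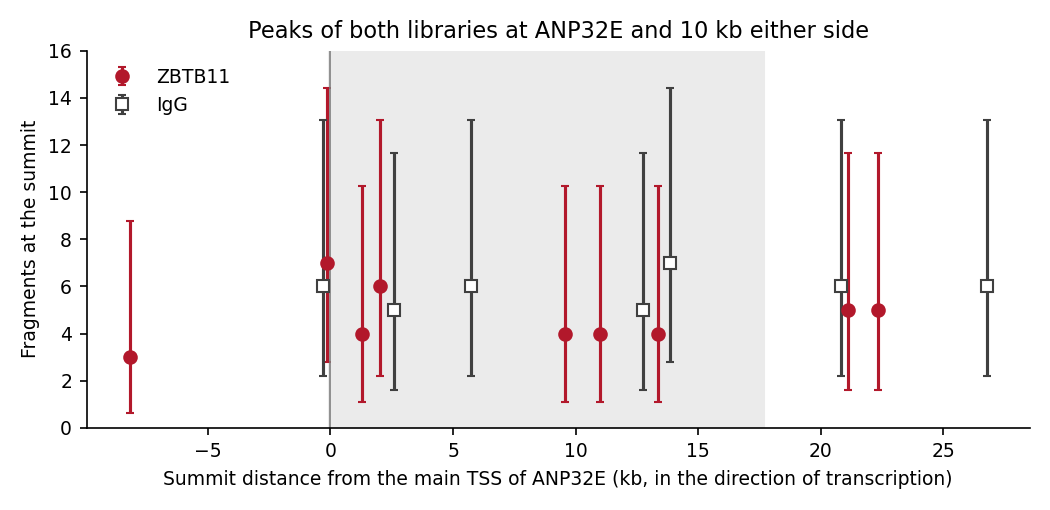
Fragments at the summit (vertical axis, with exact Poisson 95% intervals) are plotted against distance from the main TSS of *ANP32E* in kb for the ZBTB11 library (filled circles) and the IgG library (open squares), 1 library each; the shaded band is the gene. The 9 ZBTB11 peaks have 3 to 7 fragments and the 7 IgG peaks 5 to 7, and their intervals overlap throughout.

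Several other PP2A genes had far taller peaks than the core subunits. Of 26 other PP2A genes, 17 had a strong promoter peak, with a median of 25 fragments (genes without a peak as 0), beside 46.9% and 9 fragments over all protein-coding genes. These genes have 2 to 31 start positions, and unlike the members they were not compared by number of starts. Among protein-coding genes with at least 10 start positions, 64.5% had a strong peak. Of 15 regulatory subunits, which direct the phosphatase to its substrates, 8 had a strong peak, and their median was 11 fragments. *PPP2R3C* led with 222 fragments (194 to 253; −log10 p 212) under a promoter shared with *PRORP*, which encodes a mitochondrial tRNA-processing nuclease. *PPP2R5E*, a B56-type subunit, followed with 175 (150 to 203). Of 5 assembly and methylation factors 4 had a strong peak, among them the methylesterase gene *PPME1* with 148 fragments (125 to 174), under a promoter shared with *C2CD3*. Of 4 other inhibitors 3 did, led by *CIP2A*, an oncogenic PP2A inhibitor, with 170 fragments (145 to 198) at a promoter shared with *DZIP3*. Both related catalytic subunits, of PP4 and PP6, had a strong peak. *LCMT1*, the methyltransferase that opposes *PPME1*, and *ENSA*, a mitotic PP2A inhibitor, had no ZBTB11 peak near a TSS. Each had 6 ZBTB11 peaks in the gene away from its starts, of which 1 was strong at *LCMT1* and 0 at *ENSA*. Within 5 kb of a TSS, 19 of the 26 genes had a strong peak (background 48.5%). Beside these, the strongest core-subunit peak, that of *PPP2CB*, had 17 fragments, and the PP2A inhibitor *SET* had 9. By fold over background, *PPP2R3C* stood at 20.7, *PPME1* at 19.2, *CIP2A* at 18.6, *PPP2R5E* at 17.9 and *PPP2CB* at 6.13. The background was counted in the same library, so a tall peak adds to its own background and lowers its fold.

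Several histone chaperones outside the SET, NAP and ANP32 families had tall promoter peaks, and none of the further members of those families did. Of 26 other chaperone and partner genes 12 had a strong promoter peak, a share close to the 46.9% of all protein-coding genes, with a median of 9 fragments. Of 12 other histone chaperones 10 were strong, at a median of 57 fragments, against 0 of 7 further NAP and SET family genes and 0 of 2 further ANP32 genes. The further family genes have 1 to 5 annotated start positions and the other histone chaperones 2 to 23, and the groups were not matched for this. *HIRA*, the H3.3 chaperone, had 485 fragments (443 to 530) at a promoter shared with *MRPL40*, and *DAXX*, its counterpart at heterochromatin, 202 (175 to 232). By fold *HIRA* stood at 11.9 (background 39.9), *DAXX* at 16.6 (background 11.2) and the member *NAP1L4* at 10.4 (background 2.86). These backgrounds also include fragments of the peak itself, and how far that lowered each fold was not tested. Of 5 partners of SET, 2 were strong. *NME1*, a nucleoside diphosphate kinase of the SET complex, had the highest value of any listed gene at 507 fragments (464 to 553; −log10 p 456), and *APEX1*, a DNA repair enzyme of that complex, had 155 (132 to 181) at a promoter shared with *OSGEP*. *NAP1L3*, *SETSIP*, *ANP32C* and *ANP32D* had no peak near a TSS; *ANP32C* is annotated as a processed pseudogene. The strongest of the other NAP and SET family genes reached 7 fragments, below every NAP1-like and ANP32 member except *ANP32E*. These counts describe 1 library, both lists of other genes were drawn up with earlier results of these data known, and no list was tested against other genes.

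**Figure D4:**
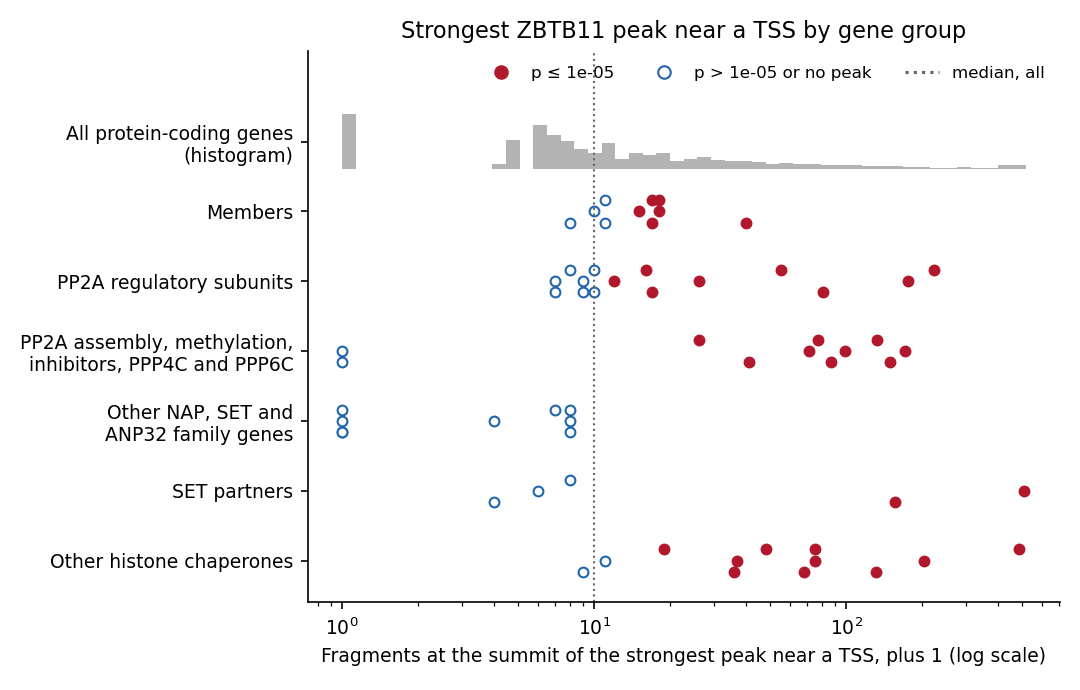
The fragments at the summit of the strongest ZBTB11 peak near a TSS, plus 1, are plotted on a log axis for the members and the other listed genes by group, 1 point per gene, with the histogram of all 20033 protein-coding genes at the top and their median of 9 as a dotted line. The members lie between 7 and 39, the PP2A regulatory subunits between 6 and 222 with a median of 11, and the assembly, inhibitor and related catalytic genes of PP2A, apart from 2 at 0, at 25 to 170.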

How the data were processed

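ChIP-seq peak lists of 2 libraries, ZBTB11 and IgG, were used, and groups came from the sample titles. Per the study's methods the authors sequenced paired ends, used BWA with hg38 for alignment, and ran MACS on each library alone, without pooling, at a p-value below 0.05. The layout of the deposited lists is one that later MACS releases write, and which release made them is uncertain. They give, as made by the authors' peak caller, the fold enrichment of the summit over background (a ratio), and the −log10 p and −log10 q of the summit. The lists carry no read totals, so depth is described here by the background.

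From these, the whole number of fragments n at each summit and the background b were solved by fold = (n + 1)/(b + 1) and the Poisson upper tail, which matched 100% of peaks within 0.001, also in simulated peaks. The fragment lengths were 258 (ZBTB11) and 263 (IgG) bases, and backgrounds above the genome-wide one fell on whole fragments in 10 kb. Those fragments are of the same library, so a peak's own fragments count in its background. Genes and TSSs came from GENCODE release 44. A peak was near a TSS if any base lay within 3 kb of any start of the gene. Intervals are exact 95% Poisson intervals for fragments and exact binomial ones for their ratios. RefSeq promoter windows were on GRCh38.p14. Python 3.11.15, numpy 2.4.6, pandas 2.3.3, scipy 1.17.1 and pysam 0.24.0 were used.

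The members and both lists of other genes (52 genes) were chosen with earlier results of these data known. Named in the text were all members, of each other list the 4 genes with the strongest promoter peak by p-value and those with no peak near a TSS, and genes sharing a promoter peak. The closing section also names 6 further listed genes on chromosomes with IgG peaks, chosen after their values were seen. With 1 library per group no test was run, and counts were read against the same count over all protein-coding genes. Alternatives changed the TSS distance, the starts counted, the use of summits, the p-value or q-value, the motif and its window, and the IgG region. Sequence of *PPP2CB* is not printed here.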

Additional observations from a re-analysis of the deposited data

How the results depend on the processing

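The 7 counts were recomputed under 38 alternatives, 1 of them chosen after seeing the data, and 32 stayed within 1.5 times. At a p-value of 0.001 or less, all 10 members had a peak near a TSS (background 66.6%), and 1 IgG peak was left around *ANP32E* in place of 6. The motif lay at 2 of 8 strongest peaks at a q-value of 0.05 or less (background 22.5%), at 2 of 10 at a p-value of 0.001 or less (19.6%), and at 0 of 6 strong ones within 25 bp of the summit (12.7%). CGGAAG, the alternative chosen later, lay at 2 of 6 (29.6%). The count of 6 members with a strong promoter peak stayed 6 at 1 kb, at 5 kb, with basic transcripts, with gene 5′ ends alone and with summits, and was 8 with a q-value threshold of 0.05. Each alternative counts more or fewer peaks or letters than the main setting, and the cause of the changes was not tested. No paired analysis was possible because there is only 1 library per group. The single strong peak inside a gene, in *PPP2CB*, stayed 1 of 10 while its background rose from 3.81% to 13.6% with a q-value threshold of 0.05 and to 32.5% at a p-value of 0.001. Depth limits the values: the median ZBTB11 peak had 5 fragments, and the intervals of most members overlap. PCR copies were not assessed, and control values of 9 of 10 members were not analysed here.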

Other observations

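Besides *ANP32E*, 8 of the other listed genes lie on chromosomes with IgG peaks and could be set beside the control, and 6 of them, all but *ENSA* and *SETSIP*, are named here after their values were seen. *TIPRL*, a regulator of PP2A-type phosphatases, had 76 ZBTB11 fragments at its strongest promoter peak and 7 IgG fragments. *NASP*, a chaperone of linker histones and of H3-H4, had 74 and 8. *CHAF1B*, a subunit of the chromatin assembly factor CAF-1, had 47 and 7. At these 3 genes the ZBTB11 peak was far above the IgG peak, unlike at *ANP32E* with 7 and 6. The IgG values were not limited to the IgG peak that overlaps the ZBTB11 peak. With 4 IgG peaks near a TSS at *NASP* and 2 at *CHAF1B*, their IgG values may come from another place near the starts. At *PPP2R2D* the values were 15 and 8, and at *NPM3* 10 and 8. No IgG peak overlapped the strongest ZBTB11 promoter peak of either gene, so these values come from different places near their starts. *PPP2R5A*, with 16 ZBTB11 fragments, had no IgG peak near a TSS. *ENSA* was the reverse case, with 1 IgG peak of 7 fragments near a TSS and no ZBTB11 peak there, and *SETSIP* had neither. The libraries were not scaled to each other, and no difference was tested.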
